A study of Rattus norvegicus with 10 samples.

Results

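The subunits of the mitochondrial respiratory chain that are encoded in the nucleus were examined in the trigeminal ganglion (TG) of rats with oral ulcerative mucositis (OUM). Members were the genes on the array whose symbol begins with Ndufa, Ndufb, Ndufc, Ndufs, Ndufv, Uqcr, Cox4 to Cox8 or Atp5, together with Sdha to Sdhd and their assembly factors, Cycs and Cyc1. This rule uses names and no measured value. It found 89 genes, measured by 113 probes, of 26772 features on the array. Of the 89 genes, 78 were assigned to the 5 complexes or cytochrome c. They include Atp5if1, an inhibitor of complex V, and Cox7a2l, which links complexes III and IV. A further 9 encode assembly factors with Ndufaf or Sdhaf names, 1 is a pseudogene (Cox6c-ps1) and 1 is the Ndufa10-like gene Ndufa10l1. Another 14 genes that the rule would take, Ndufa3, Ndufa7, Ndufa8, Cox7a1 and Atp5mc3 among them, were not matched to a probe here.

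All rats were male Wistar rats, and whole TGs of both sides were taken on day 2 after saline perfusion. In the OUM model, filter paper soaked in 50% acetic acid lay for 30 s in the labial fornix below the lower incisors of anesthetized rats, whereas the naive rats, age-matched per the study's methods and called control in the labels, were anesthetized and not otherwise treated. RNA from 5 naive and 5 OUM model rats was hybridized to 1-colour Agilent arrays. The labels give no age, although the study's methods state one for the OUM model. The ganglion was not divided by branch, so neurons that supply the ulcer were measured together with all others and with glia. Each level below is a log2 signal after subtraction of the array's 75th percentile, and each difference is OUM minus naive on that log2 scale.

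The respiratory chain lies in the inner mitochondrial membrane. Complex I takes electrons from NADH and complex II from succinate, complex III passes them to cytochrome c, and complex IV hands them to oxygen. Complexes I, III and IV pump protons while they do so, and complex V, the ATP synthase, lets the protons back in and makes ATP. Sensory neurons depend on this supply along long axons, and most subunits are nuclear genes whose proteins are imported into the organelle, while a few central ones are encoded by mitochondrial DNA. None of the 13 mitochondrially encoded subunits was matched to a probe here.

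Many nuclear genes of the chain share promoter elements bound by NRF1, by ETS factors such as GABP, by YY1 and by Sp1. Promoter windows of 300 bases (250 before the start and 50 after it) were available from RefSeq (GRCr8) for 77 of the 89 members, and each was searched on both strands for 5 short strings, counted separately and free to overlap. The string for NRF1 was GCGCANGCG and the one for ETS factors was CCGGAA, while that for YY1 was GCCATNTT. Sp1 was represented by GGGCGG, and the core of a TATA box by the letters TATAAA. The NRF1 string was in 24.7% of the member promoters and in 5.80% of all 33469 promoters, or 9.46% of those of genes on the array. The ETS string was in 42.9%, against 15.0% and 20.9%, and the YY1 string was in 35.1%, against 6.96% and 8.02%. The Sp1 string was in 42.9%, against 33.1% of all promoters and 49.3% of those of genes on the array, and the TATA box string in 6.49%, against 14.2% and 11.9%. At least one of the NRF1, ETS and YY1 strings was in 58 of the 77 member promoters and in 24.0% of all promoters. This combined share was not computed for genes on the array, in which each of these strings was more frequent than in all promoters. A match describes letters in a window and shows no binding.

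**Figure D1:**
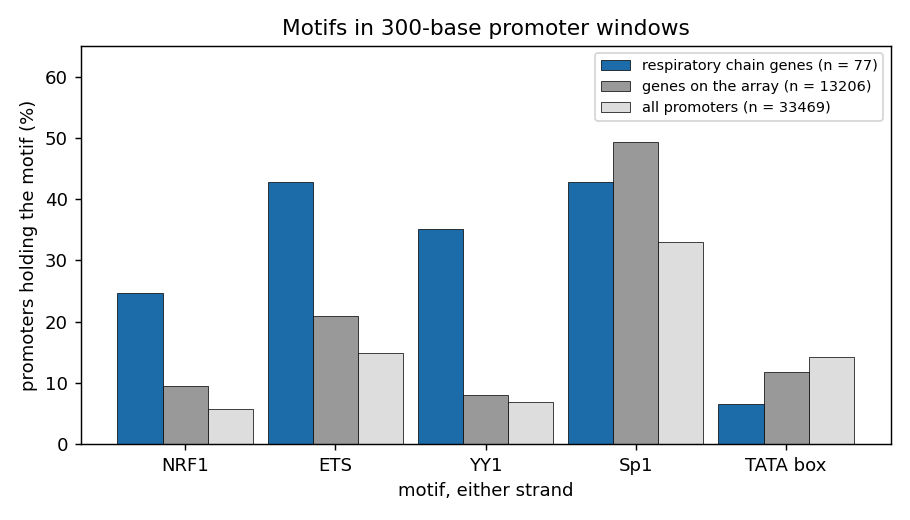
Share of 300-base promoter windows (y axis, percent) that hold each of 5 motif strings on either strand (x axis), for the 77 respiratory chain genes with a window, for genes on the array and for all 33469 promoters. The NRF1, ETS and YY1 bars of the respiratory chain genes (24.7%, 42.9% and 35.1%) stand above both other bars, the Sp1 bar lies between the other bars, and the TATA box bar lies below them.

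The last 200 bases before the start are shown for 4 members that the results below turn on: Ndufv3 and Uqcrc2, the members of complexes I and III with the lowest p, Uqcrfs1, which lay on the other side of 0, and Cox6a2, a subunit form typical of muscle. The windows are chr20:9613586-9613785 (plus strand), chr1:184599040-184599239 (plus strand), chr17:34186402-34186601 (plus strand) and chr1:192219717-192219916 (minus strand) of GRCr8. Each is written from 5′ to 3′ on the strand of its gene, and capitals mark matches to any of the 5 strings on either strand.
Ndufv3: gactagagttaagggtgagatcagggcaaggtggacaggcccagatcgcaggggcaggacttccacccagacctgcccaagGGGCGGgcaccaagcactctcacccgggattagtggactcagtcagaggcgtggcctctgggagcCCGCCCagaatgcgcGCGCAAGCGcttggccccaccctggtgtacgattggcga
Uqcrc2: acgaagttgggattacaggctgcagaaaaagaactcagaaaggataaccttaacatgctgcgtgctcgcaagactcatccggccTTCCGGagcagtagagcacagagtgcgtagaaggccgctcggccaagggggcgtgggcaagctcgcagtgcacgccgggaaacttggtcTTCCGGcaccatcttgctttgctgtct
Uqcrfs1: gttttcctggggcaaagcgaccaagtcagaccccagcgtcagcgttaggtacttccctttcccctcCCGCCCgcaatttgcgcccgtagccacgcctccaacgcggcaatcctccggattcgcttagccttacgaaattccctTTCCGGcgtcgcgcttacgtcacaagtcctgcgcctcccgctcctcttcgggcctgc
Cox6a2: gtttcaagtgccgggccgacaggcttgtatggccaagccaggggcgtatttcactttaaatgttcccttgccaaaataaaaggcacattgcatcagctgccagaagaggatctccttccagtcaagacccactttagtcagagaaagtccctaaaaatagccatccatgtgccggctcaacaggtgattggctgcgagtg
The Ndufv3 window held 1 NRF1 string and 2 Sp1 strings, the Uqcrc2 window 2 ETS strings, and the Uqcrfs1 window 1 ETS and 1 Sp1 string. The Cox6a2 window held none of the 5. Among the members with a window, the median difference between OUM and naive TGs was -0.044 with and -0.056 without the NRF1 string, and -0.044 with and -0.057 without the ETS string. It was -0.056 both with and without the YY1 string.

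Naive array 4 and OUM arrays 4 and 5 shared slide 2, and the remaining 7 arrays, 4 of them naive, were on slide 1. All 17 sensory neuron markers on the array, which mark the cells that define a sensory ganglion, were well above background on all 10 arrays. The pituitary list varied most of the marker lists, with a summed signal of 0.344 to 21.3 times the 75th percentile in naive and 1.07 to 25.9 times in OUM TGs. Of the 19271 features tested, 2 passed an adjusted p of 0.05 (limma, Benjamini-Hochberg), which is 0.0104%. In bulk tissue, fewer cells of a type and less RNA per cell cannot be told apart.

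Of the 89 genes, 88 were well above background on all 10 arrays and were tested. The exception was Cox8c, a testis form of a complex IV subunit, which was not well above background on any array. No member passed the adjusted threshold, and the lowest adjusted p was 0.521. An unadjusted p under 0.05 was reached by 0 members on the higher side and by 2 on the lower side in OUM TGs, whereas 3.93% of all tested features were on the higher and 4.92% on the lower side. The share of members was thus 0% on the higher and 2.27% on the lower side. On the higher side the members' share stayed below that of all features under all 26 alternative settings, whereas on the lower side it rose above it under 4 of them. These were the methods' t-test (5.68% of members against 4.92% of all features), limma-trend (6.82% against 5.24%), and limma without OUM array 1 (10.2% against 6.94%) or without OUM array 3 (4.55% against 3.97%). Over all features, 757 were higher and 949 lower at that level, and the split turned to 910 and 528 with array median scaling and 908 and 707 with quantile normalization, where 0 members were lower. For no member did the 5 OUM arrays lie wholly above or wholly below the 5 naive arrays, against 0.799% and 1.00% of all features.

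The differences were small. The 95% interval lay within a 1.2-fold change in either direction for 77 of the 88 members and within a 1.5-fold change for 86. Those outside it were Cox7c (-0.44 to 0.59) and Cox8b (-0.73 to 0.23). The median SD across arrays was 0.047 in naive and 0.086 in OUM TGs, and the SE of a difference was 0.051 in the median member, with a range of 0.038 to 0.23. The point estimates were not spread evenly around 0: 76 of 88 members (86.4%) were below 0, compared with 54.4% of all features. The median difference was -0.056, a level 3.82% lower, against -0.010 over all features. Brighter features lay lower in general. When all features were ranked by mean signal and cut into 4 equal parts, the median was 0.024 in the dimmest part and -0.028 in the brightest, where 65.5% were below 0. The brightest part held 81 of the 88 members.

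The size of this shift moved with the scaling. With quantile normalization, 64 of 88 members were below 0, the median was -0.025, and the median over all features was 0.0027. With the slide as a block, 82 members were below 0 and the median was -0.052. Within slide 1 the median was -0.048, with 81 members below 0, and within slide 2 it was -0.076, with 74 below 0.

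**Figure D2:**
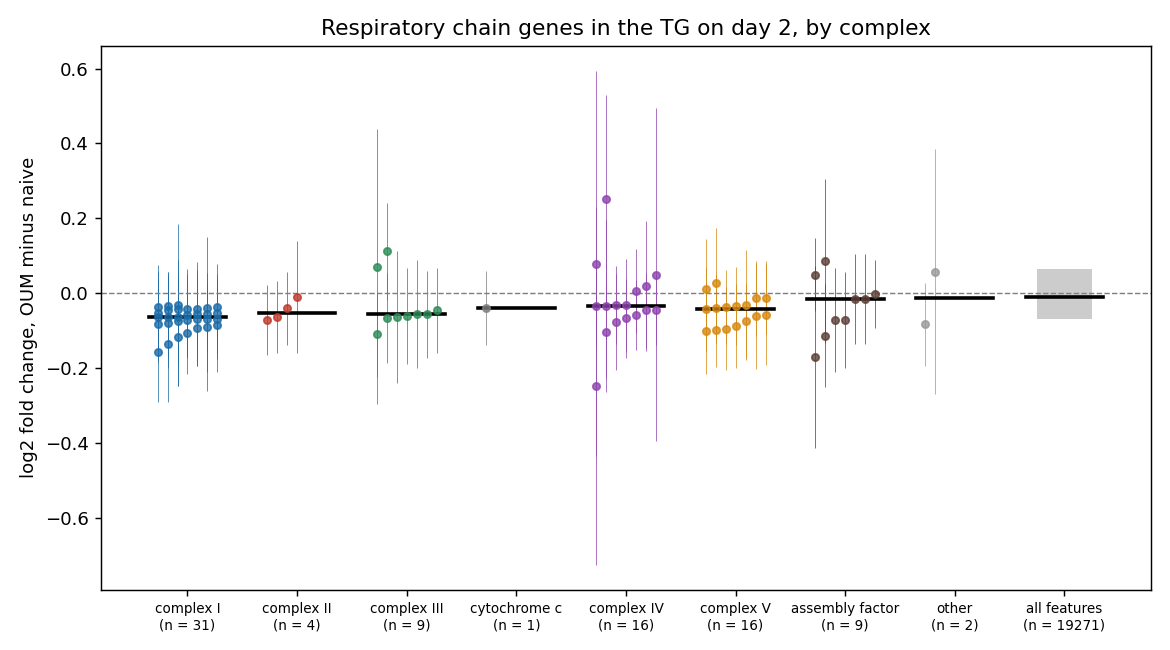
Difference between OUM and naive TGs on the log2 scale (y axis) for each of the 88 tested members (points, with 95% intervals from limma) in 8 classes (x axis), with class medians as black lines. The grey bar is the interquartile range of all 19271 features. All 31 complex I genes lie below 0 and within 0.16 of it, and the intervals of most members in every class cross 0.

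The shift was not shared by all OUM arrays. For each array, the median over the 88 members of the deviation from each member's own mean over the 10 arrays was taken. In naive TGs it was 0.025, 0.047, -0.0071, 0.022 and 0.024 on arrays 1 to 5. In OUM TGs it was 0.033, -0.12, 0.0074, -0.078 and 0.020. OUM arrays 1, 3 and 5 thus lay within the range of the naive arrays, and OUM arrays 2 and 4 lay below it. On OUM array 2 only 3 of the 88 members were above their own mean, and on OUM array 4 only 19, compared with 38 to 75 on the naive arrays. The lowest of the 10 values was on OUM array 2 for 48 members and on OUM array 4 for 29, or 54.5% and 33.0%, whereas these arrays were lowest for 18.1% and 11.3% of all features. Without OUM array 2 the median difference was -0.030, with 65 members below 0, and without OUM array 4 it was -0.040, with 79 below 0.

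Marker lists of other cell types also differed among the arrays. For the counts below, an unadjusted limma p under 0.05 was reached by 3.93% of all features on the higher and 4.92% on the lower side. The median deviation of the 17 neuron markers was -0.13 on OUM array 2, -0.14 on OUM array 4, -0.091 on OUM array 5 and 0.17 on OUM array 1, and it was -0.017 to 0.13 on the naive arrays. Of these markers, 14 were below 0 in the comparison, with a median difference of -0.072, and an unadjusted p under 0.05 was reached by 1 below and 0 above. Their summed signal was 651 to 703 times the 75th percentile in naive and 597 to 734 times in OUM TGs. The 8 satellite glia markers had a median difference of 0.13. Their median deviation was highest on OUM array 4, at 0.22, and was 0.056 on OUM array 2, within the naive range of -0.11 to 0.079. Of them, 2 above and 1 below 0 reached an unadjusted p under 0.05, and their summed signal was 142 to 157 times the 75th percentile in naive and 142 to 156 times in OUM TGs. The Schwann cell and myelin markers had a median difference of 0.071, with 6 of 8 above 0, and an unadjusted p under 0.05 was reached by 1 above and 0 below. Their median deviation was 0.23 on OUM array 2, the highest of the 10 arrays, and 0.051 on OUM array 4, against -0.16 to 0.091 on the naive arrays, and their summed signal was 362 to 421 times the 75th percentile in naive and 371 to 409 times in OUM TGs. By median deviation, macrophage markers were highest on the same pair of arrays on which the chain genes were low. It was 0.31 on OUM array 4 and 0.17 on OUM array 2, against -0.21 to 0.13 on the naive arrays. By summed signal, OUM array 2 was at 2.96 times the 75th percentile, below naive arrays 1 and 5 (3.23 and 3.24) and OUM array 3 (3.40). Of the 7 macrophage markers, 6 were above 0, with a median difference of 0.15, 0 reached an unadjusted p under 0.05, and their summed signal was 2.49 to 3.24 times the 75th percentile in naive and 2.66 to 3.48 times in OUM TGs. The pituitary, blood and meningeal lists also had their highest median deviation on OUM array 2, at 2.93, 0.34 and 0.19, with naive maxima of 2.37, 0.31 and 0.13, but were at -1.17, -0.13 and -0.0069 on OUM array 4. The part of these cell types in the level of the chain genes was not tested.

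**Figure D3:**
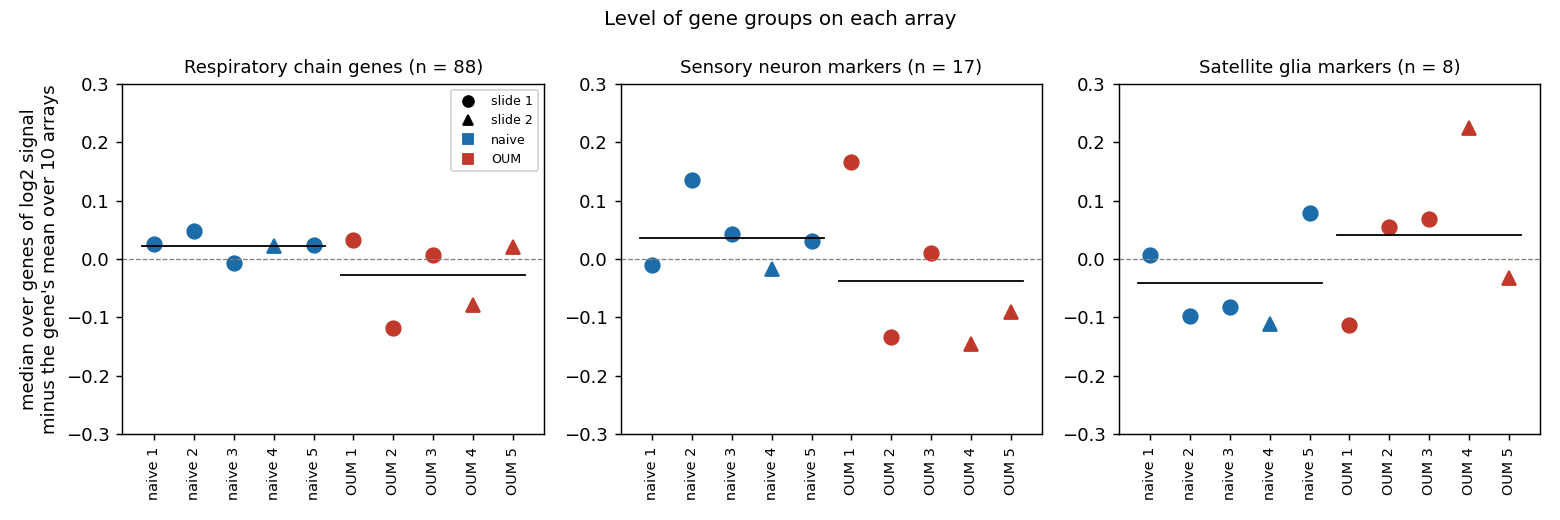
Median over genes of the log2 signal minus each gene's mean over the 10 arrays (y axis), per array (x axis), for the 88 respiratory chain genes, 17 sensory neuron markers and 8 satellite glia markers; colours mark the group, shapes the slide and black lines the group means. For the chain genes, OUM arrays 2 and 4 (-0.12 and -0.078) lie below the naive arrays and the other OUM arrays lie among them.

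Complex I was the class with the most members. All 31 of its tested genes had a difference below 0, with a median of -0.063 and the lowest at -0.16. Of all features 54.4% were below 0, and of the brightest part 65.5%. On OUM array 2, 0 of the 31 genes were above their own mean over the arrays, and on OUM array 4 only 1. On OUM arrays 1, 3 and 5 it was 25, 18 and 14, against 16 to 29 on the naive arrays. The 31 differences come from the same arrays and do not count as 31 separate results. The genes of the NADH-oxidizing N module had a median difference of -0.059 (8 genes), and those of the ubiquinone-reducing Q module -0.063 (5 genes). The class of the membrane arm, which carries the proton pumps, or its junction with the matrix arm had a median of -0.070 (17 genes). In limma, 1 of the 31 passed an unadjusted p of 0.05, Ndufv3, a small accessory subunit of the N module. The Ndufv3 level was 4.51, 4.67, 4.50, 4.43 and 4.51 in naive TGs and 4.49, 4.28, 4.44, 4.27 and 4.35 in OUM TGs. All 5 OUM values were below the naive mean, 3 of them were below every naive value, and the groups overlapped through naive array 4. The difference was -0.16 (SE 0.061), with an unadjusted p of 0.0273 and an adjusted p of 0.521 in limma and an exact permutation p of 0.0317. A second Ndufv3 probe gave -0.18 (SE 0.14) and the remaining one -0.074 (SE 0.088).

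Another 4 complex I genes were among the 8 lower members with the lowest p. Ndufb8, a subunit of the membrane arm, was 5.72 to 5.87 in naive and 5.60 to 5.77 in OUM TGs, with medians of 5.80 and 5.73. Its difference was -0.11 (SE 0.049, unadjusted p = 0.0537, adjusted p = 0.573). Ndufb9, of the same arm, differed by -0.093 (SE 0.046), and Ndufb7 by -0.14 (SE 0.070), with OUM arrays 2, 4 and 5 below all naive arrays for Ndufb7 (3.59, 3.51 and 3.56 against 3.68 to 3.83). Ndufs1, which holds iron-sulfur clusters of the N module, differed by -0.12 (SE 0.060), and its lowest value, 2.63, was on OUM array 2. The adjusted p of these 3 genes was 0.598 to 0.612.

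Complex II links the chain to the citric acid cycle. Its 4 subunits lay at -0.071 (Sdhb, the iron-sulfur subunit), -0.064 (Sdha, the flavoprotein), -0.041 (Sdhd) and -0.010 (Sdhc), the last pair being the membrane anchors. Sdhb was 2.83, 2.84, 2.82, 2.89 and 2.84 in naive and 2.83, 2.67, 2.78, 2.76 and 2.84 in OUM TGs (SE 0.042, unadjusted p = 0.123, adjusted p = 0.661). OUM arrays 1 and 5 lay among the naive values of Sdhb and the others below them.

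In complex III, 7 of 9 genes were below 0 and the median was -0.056. Uqcrc2, a core protein, was 2.71, 2.63, 2.64, 2.54 and 2.60 in naive and 2.49, 2.38, 2.53, 2.56 and 2.60 in OUM TGs. All OUM values were below the naive mean, with 3 below every naive value. The Uqcrc2 difference was -0.11 (SE 0.051, unadjusted p = 0.0577, adjusted p = 0.579). It was -0.18 within slide 1 and 0.039 within slide 2. Uqcrfs1, the Rieske iron-sulfur protein that hands electrons on to cytochrome c1, lay on the other side. Its level was 2.72, 2.81, 2.73, 2.76 and 2.72 in naive and 3.03, 2.84, 2.72, 2.80 and 2.90 in OUM TGs. OUM arrays 1, 2 and 5 were above all naive arrays for Uqcrfs1, and OUM array 3 was among the lowest values. The difference was 0.11 (SE 0.059, unadjusted p = 0.0846, adjusted p = 0.619), and 0.12 and 0.091 within slides 1 and 2. Cyc1, which encodes cytochrome c1, differed by -0.061 (SE 0.058), and Cycs, the mobile electron carrier, by -0.040 (SE 0.044, adjusted p = 0.822).

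Complex IV showed the widest spread. Of 16 tested genes, 11 were below 0, the median was -0.034 and the range was -0.25 to 0.25. Of the common forms, Cox4i1 differed by -0.046, Cox5b by -0.058, Cox6c by -0.068, Cox7b by -0.031 and Cox8a by 0.0053. Cox6a1, the common form of subunit 6a, was at -0.10 (SE 0.056, unadjusted p = 0.0931). Both ends of the range were forms typical of heart and skeletal muscle, Cox6a2 and Cox8b.

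Cox6a2 was -2.69, -2.53, -2.71, -3.17 and -2.56 in naive and -2.76, -2.38, -2.41, -2.36 and -2.48 in OUM TGs. OUM arrays 2 to 5 were above every naive array, and OUM array 1 was below 4 of the naive arrays. The difference was 0.25 (SE 0.13), with an unadjusted p of 0.0713, an adjusted p of 0.599 and an exact permutation p of 0.0873. Without naive array 4, the lowest value, it was 0.14. It was 0.10 within slide 1 and 0.75 within slide 2, where naive array 4 is the single naive array. Cox8b was -3.45, -3.22, -3.71, -2.89 and -3.01 in naive and -3.36, -4.00, -3.14, -3.91 and -3.13 in OUM TGs. OUM arrays 2 and 4 were the lowest of all for Cox8b, and the other OUM arrays lay among the naive ones. The difference was -0.25 (SE 0.22, adjusted p = 0.762). The 10 tested skeletal muscle markers had a median difference of 0.066, with 4 below 0 and 0 passing an unadjusted p of 0.05 in either direction, and their summed signal was 0.594 to 0.934 times the 75th percentile in naive and 0.592 to 0.870 times in OUM TGs. Of the muscle markers, Myh2 was not well above background on any array, and naive array 2 had the highest median deviation (0.70). Their part in Cox6a2 and Cox8b was not tested.

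The other tissue-restricted forms were Cox4i2, the lung form of subunit 4, at 0.049 (SE 0.20), and Cox6b2, the testis form of subunit 6b, at -0.034 (SE 0.10). Cox8c was -9.02 to -8.47 in naive and -9.33 to -8.91 in OUM TGs, which is not well above background.

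Complex V had 14 of 16 genes below 0 and a median of -0.042. Atp5f1a, the alpha subunit of the catalytic F1 head, was the other member past an unadjusted p of 0.05 in limma. Its level was 6.24, 6.28, 6.18, 6.19 and 6.21 in naive and 6.21, 6.05, 6.16, 6.09 and 6.09 in OUM TGs. OUM arrays 2 to 5 were below every naive array, and OUM array 1 lay among the naive arrays. The difference was -0.099 (SE 0.044, unadjusted p = 0.0455, adjusted p = 0.560, exact permutation p = 0.0397). The beta subunit gene Atp5f1b, which forms the catalytic sites together with the alpha subunit, was at 0.010 (SE 0.061), the gamma subunit gene Atp5f1c at -0.095 (SE 0.050), and Atp5f1d at -0.062 (SE 0.064). Atp5if1, which encodes the inhibitor that stops the enzyme from running backwards, was 4.76 to 4.83 in naive and 4.59 to 4.82 in OUM TGs, with medians of 4.83 and 4.69. Its difference was -0.10 (SE 0.052, unadjusted p = 0.0768). Of the genes for the c subunit of the membrane ring, Atp5mc1 was at -0.088 and Atp5mc2 at 0.028.

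The 9 assembly factors had a median of -0.016, with 7 below 0. Ndufaf1, an early factor of complex I, had the lowest p of this class and differed by -0.11 (SE 0.062, unadjusted p = 0.0985). Ndufaf6 was at 0.086 (SE 0.098), and Sdhaf1, which helps to insert the iron-sulfur clusters of complex II, at 0.050 (SE 0.044). Without assembly factors, Cox6c-ps1 and Ndufa10l1, 68 of 77 members were below 0 and the median was -0.056.

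**Figure D4:**
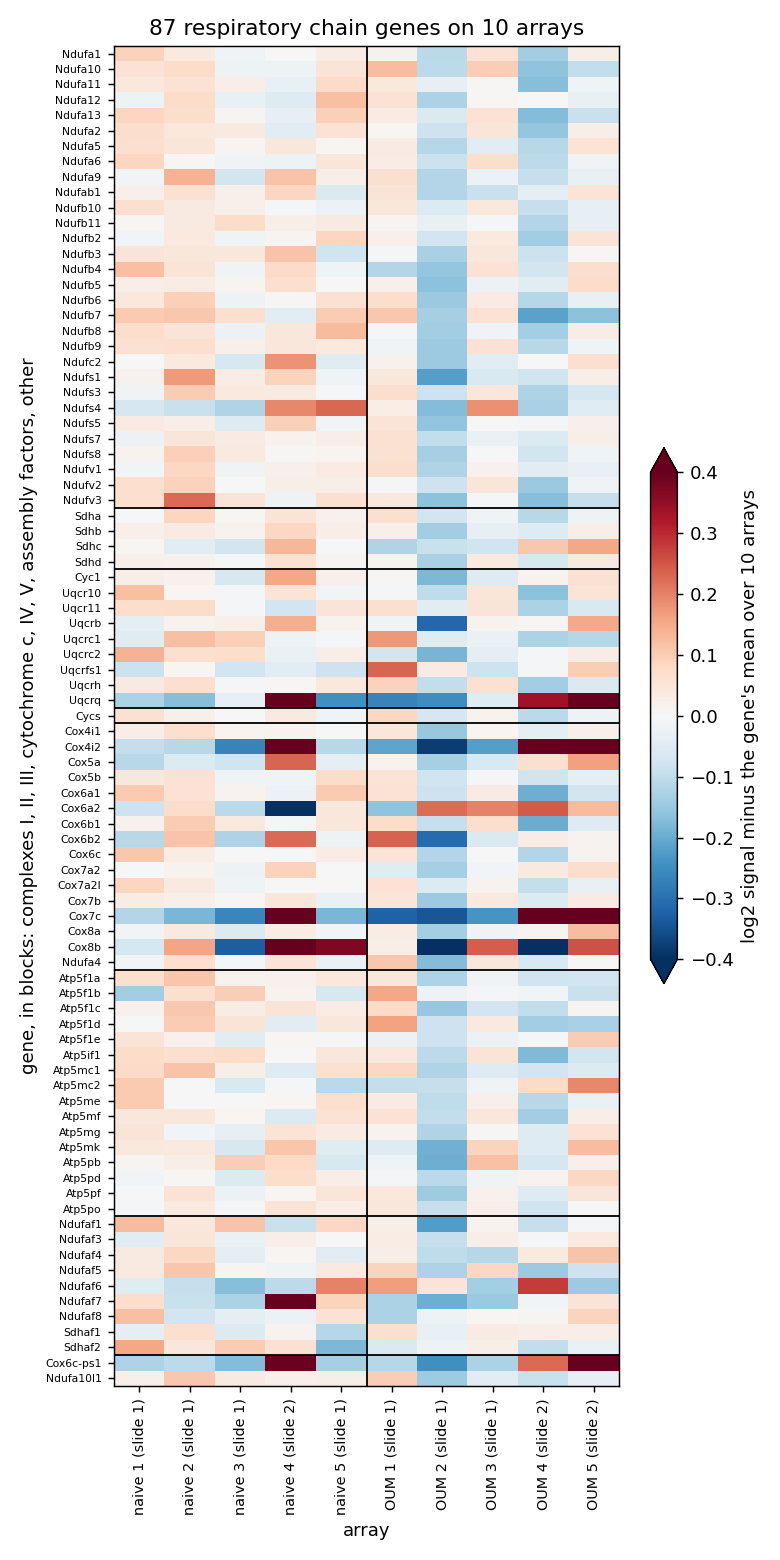
Log2 signal of 87 of the 88 tested members (rows, in blocks by complex) minus its mean over the 10 arrays (colour, values beyond ±0.4 shown at the end of the scale), for 5 naive and 5 OUM arrays (columns). OUM array 2 is blue for 84 of the 87 members, and Uqcrq, Cox4i2, Cox7c and Cox6c-ps1 are red on the 3 arrays of slide 2.

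Members did not separate by slide more often than all features did. In 8 of 88 members (9.09%) the 3 arrays of slide 2 lay above all 7 arrays of slide 1, and in 1 (1.14%) below, compared with 10.99% and 5.14% of all features. Cox7c, a small subunit of complex IV, was 1.98 on naive array 4, 1.90 on OUM array 4 and 2.07 on OUM array 5, and 1.09 to 1.32 on the arrays of slide 1. Its difference between the groups was 0.079 (SE 0.23) over all arrays and -0.082 (SE 0.051) with the slide as a block. Uqcrq, a small subunit of complex III, was -2.04 to -1.98 on slide 2 and -2.64 to -2.41 on slide 1. Cox4i2 was 1.62 to 1.70 on slide 2 and 0.813 to 1.098 on slide 1, and Cox6c-ps1 1.84 to 2.02 and 1.37 to 1.51. Cox7c, Uqcrq, Cox4i2 and Cox6c-ps1 were above 0 in the comparison over all arrays and below 0 with the slide as a block. Others with this order included Cox5a, Sdhc and Cox7a2, with slide 2 minus slide 1 at 0.22, 0.19 and 0.094.

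**Figure D5:**
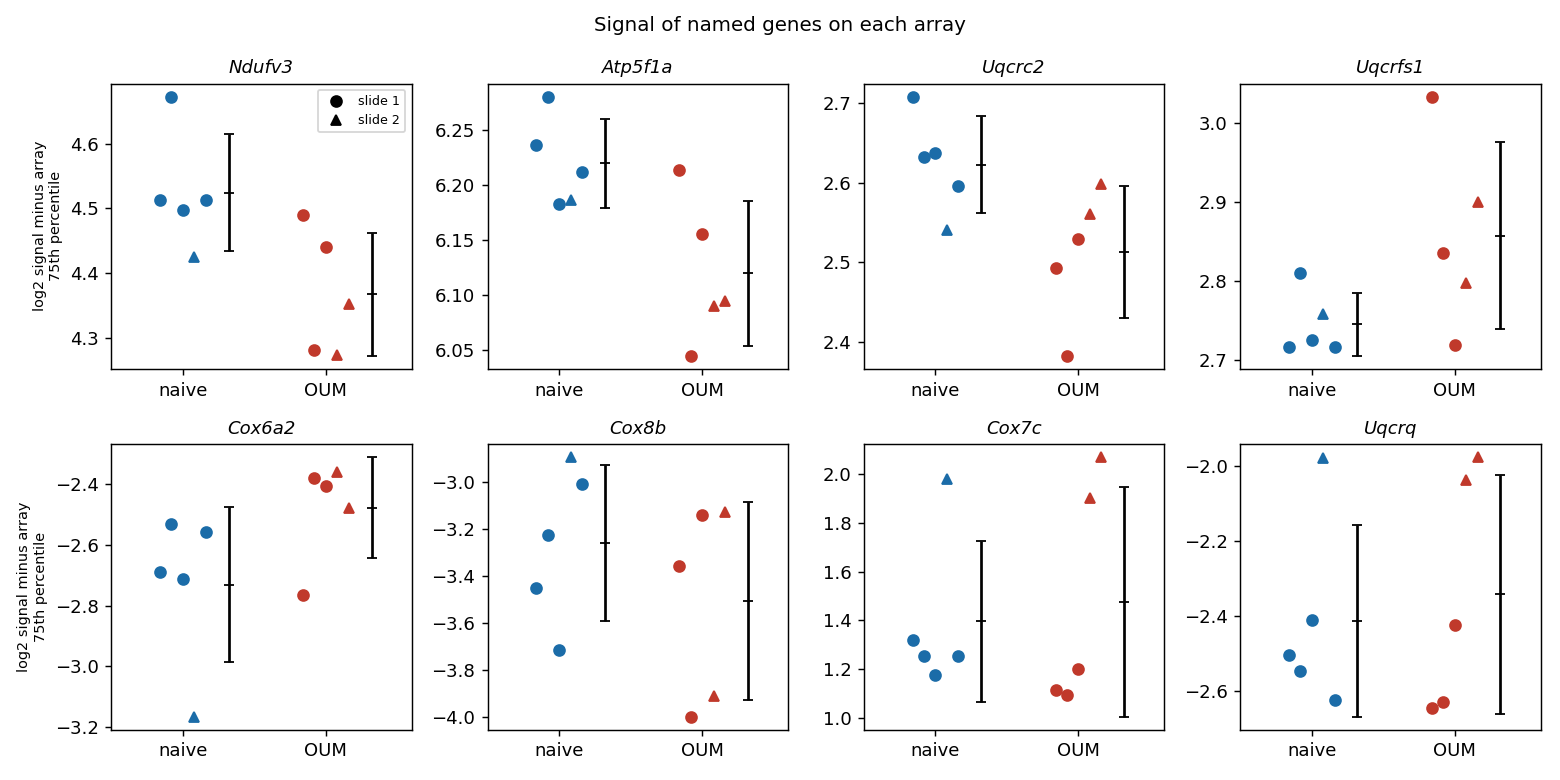
Log2 signal minus the 75th percentile of the array (y axis) for 8 members in 5 naive and 5 OUM TGs (x axis), 1 point per array, with shapes for the slide and the mean ± SD beside the points. Ndufv3, Atp5f1a and Uqcrc2 overlap between the groups by few arrays, Cox6a2 has its lowest value on naive array 4, and Cox7c and Uqcrq separate by slide.

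The probes of one gene mostly lay on the same side. There were 24 further probes for 19 members, and 4 of them had a sign opposite to that of the brightest probe of the gene, those being probes of Atp5mc2, Atp5mk, Cox6b1 and Ndufs4. One further probe passed an unadjusted p of 0.05, a dim probe of Ndufaf4 at -0.21 (SE 0.071), whereas the brightest Ndufaf4 probe was at -0.016 (SE 0.054).

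Other genes of mitochondrial energy metabolism were described by lists. Of all features, 4.92% were on the lower and 3.93% on the higher side at an unadjusted limma p under 0.05. Of the 33 tested assembly factors outside the name rule, 27 were below 0, with a median of -0.042, and 2 of them, with 0 on the higher side, reached an unadjusted p under 0.05. These were Uqcc1, an assembly factor of complex III, at -0.30 (SE 0.097, unadjusted p = 0.0109, adjusted p = 0.489), and Ecsit, a complex I assembly factor, at -0.11 (SE 0.048, adjusted p = 0.562). Uqcc1 was -0.38, -0.25, -0.39, -0.71 and -0.33 in naive and -0.64, -0.64, -0.58, -0.76 and -0.95 in OUM TGs. Naive array 4 lay among the OUM arrays for Uqcc1, and the other naive arrays lay above all of them. This difference was larger in size than that of any of the 88 chain genes.

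Of 17 tested genes of pyruvate dehydrogenase and the citric acid cycle, 13 were below 0, with a median of -0.076. An unadjusted p under 0.05 was reached by 3 on the lower and 0 on the higher side, against 4.92% and 3.93% of all features. Pdha1, the alpha subunit of pyruvate dehydrogenase, differed by -0.14 (SE 0.055, adjusted p = 0.520) and was 3.79 to 3.98 in naive and 3.62 to 3.84 in OUM TGs. Mdh2, the mitochondrial malate dehydrogenase, differed by -0.13 (SE 0.053, adjusted p = 0.538). Of 10 carriers and pores, 8 were below 0 (median -0.058) and 0 passed in either direction. Their lowest p values were those of Slc25a5, an ADP/ATP carrier, at -0.11 (SE 0.055), and Vdac1, the main pore of the outer membrane, at -0.10 (SE 0.050).

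Of 17 regulators of mitochondrial gene expression, 11 were below 0 (median -0.043). An unadjusted p under 0.05 was reached by 1 below 0 and 0 above, against 4.92% and 3.93% of all features. Tfb2m, a transcription factor of mitochondrial DNA, was -1.20, -1.17, -1.24, -1.19 and -1.30 in naive and -1.31, -1.53, -1.32, -1.33 and -1.25 in OUM TGs. OUM arrays 1 to 4 were below every naive array, and OUM array 5 lay among them. The Tfb2m difference was -0.13 (SE 0.057, unadjusted p = 0.0444, adjusted p = 0.560). Pprc1, a coactivator of the PGC-1 family, was at 0.14 (SE 0.063, adjusted p = 0.574). Of 17 glycolysis genes, 13 were below 0 (median -0.033). An unadjusted p under 0.05 was reached by 1 above 0 and 0 below, against 3.93% and 4.92% of all features. Hk2, the inducible hexokinase, was the one above, at 0.24 (SE 0.089, unadjusted p = 0.0237, adjusted p = 0.520), and Eno2, the neuronal enolase, was at -0.12 (SE 0.065, adjusted p = 0.633).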

How the data were processed

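The authors hybridized Cy3-labelled TG RNA of 5 naive and 5 OUM model rats, 1 array per rat going by the sample numbers of the methods, and quantified spots with Agilent Feature Extraction 10.7.1.1. The deposited scanner files give a processed signal intensity per spot, background-subtracted by that software, with marks for outlier, saturated and well-above-background spots. The authors' value table holds a ratio, each array's processed signal over a constant (1902 to 2156 signal units). This constant lies near the array's 75th percentile over probes (1910 to 2175), not over spots. The column medians of that table were 0.114 to 0.120, and it served as an alternative.

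Outlier and control spots were left out, spots of a probe were averaged, and from each log2 intensity the array's 75th percentile over its 58717 gene spots (2620 to 2949 signal units) was subtracted. Accessions gave 1 RefSeq symbol (GRCr8) to 18438 of 30367 probes. Of several probes, the brightest was used. Testing required marks well above background throughout the 5 arrays of either group. Of the probes, 70.9% to 77.2% carried that mark on a given array, and no array had over 1 saturated spot. The number of arrays limits the precision.

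The comparison used lmFit and eBayes of limma 3.58.1 (two-sided, Benjamini-Hochberg over 19271 features) in R 4.3.3, after a check on simulated data. Single members were also compared by a two-sided exact permutation test over 252 assignments (smallest p 0.00794). That test put 6 of the 88 tested members under 0.05, all of them lower. It was not run over all features, so this count has no share of all features to be set against. In limma, 2.27% of members and 4.92% of all features were lower at an unadjusted p under 0.05. The lowest exact p was 0.0159, for Ndufb11 (difference -0.070, adjusted p = 0.637 in limma). Lists are described by counts and medians, without a test. The labels do not say whether extraction and hybridization were done separately, so p-values measure the spread between these samples.

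Members and lists were chosen with earlier results of these data known. Members were named when past an adjusted p of 0.05 or when their groups did not overlap. The 8 higher and the 8 lower members with the lowest p were also named. So were the member lowest in p in each complex and the tissue-restricted forms. From each pathway list only the 2 tested genes with the lowest p were named, whether or not their groups overlapped. The result of 1 member is not reported here. Others, such as common subunits beside them, were named after their values were seen. The normexp alternative used the median spot signal, since the mean was not a column of the files. Same-numbered arrays did not deviate together (correlations -0.092 to 0.33), so numbers were not taken as pairs. Alternatives were quantile, median and detected-feature scaling, normexp (offset 50), other filters, outlier spots kept, means of probes or each probe alone, slide as a block, each slide alone, the replicate block, the methods' t-test, limma-trend, the authors' table, and each array left out.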

Additional observations from a re-analysis of the deposited data

Results flagged for a closer look

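Among the 22 tested named members, the 5 arrays of each group were checked for a value far from the other 4, which chance flags in about 1 of 20 groups. Of 44 groups, 6 were flagged, and in all 6 the array was naive array 4, the single naive array on slide 2. Its gap to the nearest naive array, as a share of the naive range, was 0.879 for Cox6c-ps1 (2.01 against 1.44 to 1.51), 0.819 for Cox7c (1.98 against 1.17 to 1.32) and 0.764 for Cox4i2 (1.65 against 0.926 to 1.098). For these 3 genes OUM arrays 4 and 5, also on slide 2, were high as well. The share was 0.73 for Ndufb7 (3.68 against 3.79 to 3.83), 0.729 for Sdhb (2.89 against 2.82 to 2.84) and 0.714 for Cox6a2 (-3.17 against -2.71 to -2.53). The Cox6a2 value was not shared by OUM arrays 4 and 5, which were at -2.36 and -2.48.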

How the results depend on the processing

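Of 26 alternative settings, 10 of which left out 1 array each, 0 brought a member past an adjusted p of 0.05. The median difference of the members stayed below 0 in all of them, from -0.076 (within slide 2) to -0.025 (quantile normalization), and from -0.068 (without OUM array 1) to -0.030 (without OUM array 2) when 1 array was left out. The members below 0 numbered 64 with quantile normalization and 65 to 83 when 1 array was left out, against 76. The 2 lower members at an unadjusted p under 0.05 became 0 with quantile normalization and with array median scaling, 1 with the 75th percentile over detected features, with the mean of the probes, within slide 1 and with the authors' value table, 5 with the methods' t-test (0 after Benjamini-Hochberg adjustment; 5.68% of members against 4.92% of all features) and 6 with limma-trend (6.82% against 5.24%). With 1 array left out they ranged from 0 (naive array 2 left out, or OUM array 2 or 4) to 9 (OUM array 1 left out; 10.2% against 6.94%), and were 5 without naive array 4 (5.68% against 6.65%), 4 without OUM array 3 (4.55% against 3.97%) and 1 without naive array 1. The 0 higher members became 1 with quantile normalization (Uqcrfs1), with the slide as a block and within slide 2 (Cox6a2), and 0 to 1 when 1 array was left out. With the slide as a block the 2 lower members were Ndufaf7 and Ndufv3 (2.27% of members against 6.90% of all features). Slide 2 holds 1 naive array, which is assumed there to vary like the OUM arrays. With the replicate block, 0 members were lower and 0 higher at an unadjusted p under 0.05 and the median stayed at -0.056; the paired numbers rest on no label.

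Of 572 values of named members under the alternatives, 26 changed sign. With the slide as a block these were Cox4i2 (-0.088), Cox6c-ps1 (-0.043), Cox7c (-0.082) and Uqcrq (-0.040). Within slide 1 they were Cox4i2 (-0.12), Cox6c-ps1 (-0.029), Cox7c (-0.12), Uqcrq (-0.044) and Atp5mc2 (-0.051), and within slide 2 Cox6c-ps1 (-0.078), Uqcrq (-0.029), Ndufaf1 (0.040) and Uqcrc2 (0.039). Cox6b2 changed sign with quantile normalization (0.0062) and Atp5mc2 with normexp (-0.0078). When 1 array was left out, Cox4i2 ranged from -0.071 (OUM array 5) to 0.17 (naive array 4), Cox6c-ps1 from -0.037 to 0.16, Cox7c from -0.069 to 0.23 and Uqcrq from -0.020 to 0.18, all with these same arrays at the ends. Atp5mc2 ranged from -0.017 (OUM array 5) to 0.058 (naive array 1) and Cox6b2 from -0.098 (OUM array 1) to 0.039 (OUM array 2). For Cox4i2, Cox6c-ps1, Cox7c and Uqcrq, slide 2 stood above slide 1. The cause of the changes of sign was not tested for any gene. Signal over background limits none of the 88 tested members on any array, and Cox8c cannot be compared.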
